A study of Mus musculus with 13 samples.

Results

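The 10 circadian clock genes *Arntl*, *Clock*, *Per1*, *Per2*, *Per3*, *Cry1*, *Cry2*, *Nr1d1*, *Nr1d2* and *Dbp* were described in gluteal white adipose tissue (WAT), the subcutaneous fat over the hindquarters, of mice kept under cool (22°C) or warm (29°C) housing. They were chosen by name as the core of the molecular clock and are 10 of the 34419 genes in the count table. RNA was sequenced from the whole depot of 7 male C57BL/6J mice kept at 22°C and 6 kept at 29°C, a temperature near thermoneutrality for mice, from birth to 13 weeks of age. Mice of both groups had the hair of the rear body removed after weaning and lived singly with minimal bedding and no nesting material, and no engineered allele or drug is named for either group. The comparison asks whether the clock in this fat differed between the temperatures, and whether genes whose transcripts peak at opposite times of day moved apart from mouse to mouse. The time of day at which tissue was collected is not given in the sources used here. A single collection gives each mouse a single point of its daily cycle, so differences in phase, in amplitude and in mean level cannot be told apart.

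The clock is a feedback loop of transcription. BMAL1, the product of *Arntl*, pairs with CLOCK and binds E-box sequences to activate the *Per*, *Cry*, *Nr1d* and *Dbp* genes. PER and CRY proteins then inhibit that pair, REV-ERBα and REV-ERBβ from *Nr1d1* and *Nr1d2* repress *Arntl* through the RORE sequence, and DBP activates further genes through the D-box. In fat, as in liver, *Arntl* transcripts peak when those of *Nr1d1* and *Dbp* are low, and the loop sets daily rhythms of lipid metabolism and adipokine release.

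The sequences below show where these elements lie before the genes' start sites. They were read from RefSeq start sites on the GRCm38.p6 build, for which 9 of the 10 genes had an entry; *Per2* had none. The letters CACGTG (E-box), TTATGTAA or TTACGTAA (D-box), TAGGTCA or TGGGTCA (core of the RORE) and TGACGTCA (CRE) were searched on both strands of windows of 300 bases (250 before to 50 past each start), and no 2 of the matches given here overlap. The E-box was found in 7.15% of all 32851 such windows, the D-box in 1.06%, the RORE core in 6.45% and the CRE in 1.79%. Capitals mark the matched letters. *Ciart* encodes a further repressor of CLOCK and BMAL1 and is shown because it was the only gene called between temperatures among these 10 and 24 further clock pathway genes. *Per3* is shown for its D-boxes, and both stretches are the 250 bases before the start site.
*Ciart*, chr3:95882229-95882478, minus strand: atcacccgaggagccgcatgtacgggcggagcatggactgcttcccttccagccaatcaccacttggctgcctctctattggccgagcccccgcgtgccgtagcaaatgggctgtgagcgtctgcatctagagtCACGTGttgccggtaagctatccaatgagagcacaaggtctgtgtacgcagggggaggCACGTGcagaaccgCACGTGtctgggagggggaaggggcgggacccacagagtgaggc
*Per3*, chr4:151044666-151044915, minus strand: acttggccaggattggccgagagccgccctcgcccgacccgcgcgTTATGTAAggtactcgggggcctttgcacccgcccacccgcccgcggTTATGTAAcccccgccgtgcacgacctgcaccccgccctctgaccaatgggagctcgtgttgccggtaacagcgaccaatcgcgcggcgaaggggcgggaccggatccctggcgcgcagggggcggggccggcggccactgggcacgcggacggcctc
The *Ciart* stretch held 3 E-boxes, starting at bases -116, -58 and -44 from the start site, and the *Per3* stretch held 2 D-boxes, at bases -205 and -158. Single matches in other windows are shown with 10 bases on each side, for the E-boxes of *Per1* at base -166, of *Cry1* at base -60 and of *Cipc* (a CLOCK-interacting repressor) at base -17, and for the RORE core in the later of 2 *Arntl* windows, which began 31 bases past the start site.
*Per1* E-box, chr11:69098773-69098798, plus strand: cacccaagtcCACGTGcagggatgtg
*Cry1* E-box, chr10:85185099-85185124, minus strand: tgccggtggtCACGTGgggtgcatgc
*Cipc* E-box, chr12:86947316-86947341, plus strand: cgagccgggcCACGTGactggcgaaa
*Arntl* RORE core, chr7:113207531-113207557, plus strand: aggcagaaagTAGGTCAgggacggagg
The windows of *Clock*, *Cry2*, *Nr1d1*, *Nr1d2* and *Dbp* held none of these letters, which says nothing of sites farther away. Among the further clock pathway genes, matches not printed here were E-boxes of *Tef* and *Bhlhe41*, a D-box of *Timeless*, a RORE core of *Nfil3* and a CRE of *Hlf*.

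Totals were between 22356637 and 25245785 counts per library, and fell into a cluster of 5 libraries with up to 22857079 counts, which were 22°C replicates 1 to 5, and a cluster of 8 with at least 24821549 counts, which were the other two mice at 22°C and all mice at 29°C. All libraries held fat markers: the summed level of 10 mature adipocyte genes was between 22660 and 33670 CPM (counts scaled to a common library size) at 22°C and between 24430 and 36640 at 29°C. Skeletal muscle RNA varied far more. The summed level of 12 muscle genes was between 696 and 79480 CPM at 22°C and between 87.3 and 6187 at 29°C, with none of the 12 at 0 in every library. None was called, against 1.94% of all genes tested, and 12 of 12 were higher at 22°C on average, against 51.6% of all genes tested. The summed level of 6 brown fat genes was between 42.8 and 164 CPM at 22°C and between 14.2 and 37.6 at 29°C. None of the 6 was at 0 in every library, and 2 of 5 tested were called, against 1.94% of all genes tested. The part of brown fat RNA in the clock results was not tested. In whole tissue, a change in the share of a cell type and a change of RNA per cell cannot be told apart.

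All 10 clock genes were detected in every mouse. Levels were compared between genes per length, as CPM per kb of exon, with lengths from an annotation that may differ from the authors'. *Nr1d1* was the most abundant at 128 ± 36.0 CPM per kb (SD, n = 13 mice), followed by *Dbp*, a transcription factor driven directly by the loop, at 69.0 ± 13.3. *Nr1d1* was above *Dbp* in 13 of 13 mice, though their ranges overlapped. *Per1*, the period gene that also answers to acute signals, and *Nr1d2* were alike, at 21.2 ± 5.70 and 20.3 ± 2.65 CPM per kb, and *Per1* was the higher in 7 of 13 mice. *Per3* followed at 14.4 ± 3.19 CPM per kb and *Cry2* at 12.3 ± 1.99, and *Per3* was above *Cry2* in 10 of 13 mice. *Per2* was at 7.82 ± 1.35 CPM per kb, *Clock* at 4.62 ± 0.656 and *Cry1* at 2.55 ± 0.494. *Arntl* was the least abundant, at 0.531 ± 0.361 CPM per kb, and its range did not overlap that of *Cry1*. Per length, the activators and *Cry1* were thus at the low end and the *Nr1d* genes, *Dbp* and the *Per* genes above them in these libraries, with *Per2* above *Clock* in 12 of 13 mice. That order depends on the length, which joins the exons of all transcripts (13.73 kb for *Clock*, 5.856 kb for *Per2*). In CPM the mean of *Clock* was above that of *Per2*, at 64.9 against 41.2 at 22°C and 61.7 against 51.2 at 29°C.

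**Figure D1:**
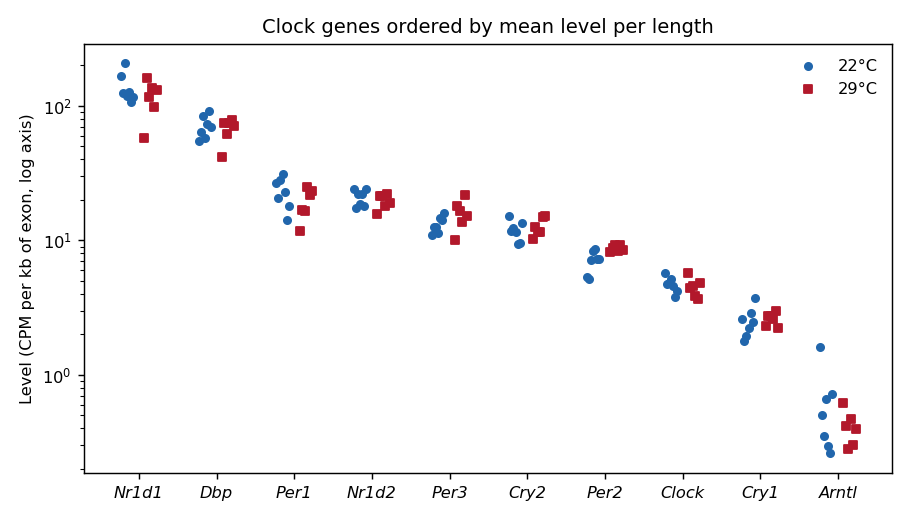
Level of each clock gene in CPM per kb of exon on a log axis, with 1 point per mouse, 22°C in blue circles and 29°C in red squares, and genes ordered by their mean over 13 mice. *Nr1d1* (mean 128) and *Dbp* (69.0) lie at the top, and *Arntl* (0.531) lies below all others.

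None of the 10 clock genes was called between temperatures at an adjusted p (P-adj) below 0.1, the study's threshold, by edgeR's quasi-likelihood test adjusted over 17779 genes. Over all genes tested, 345 (1.94%) were called, 130 higher (0.731%) and 215 lower (1.21%) at 22°C. P-adj of the clock genes was between 0.191 and 0.904. DESeq2, which called 1676 genes in all, also called none of the 10. By edgeR only *Per2* had an unadjusted p below 0.05, against 18.5% of all genes tested. Log2 fold changes (22°C relative to 29°C) were above 0 for 6 (against 51.6% of all genes tested) and below 0 for 4, with a median of 0.07 and a median size of 0.171, against 0.01 and 0.143 over all genes tested. The groups overlapped for all 10, and 1.24% of all genes had groups that did not.

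Of the activators, *Arntl* (ENSMUSG00000055116.9) lay at 1.97 to 12.2 CPM in the 22°C mice, with a median of 3.76, and at 2.13 to 4.64 in the 29°C mice, with a median of 3.06. A single mouse, 22°C replicate 1, stood above the rest, and the next was at 5.43 CPM. The means were 4.74 ± 3.56 CPM (SD, n = 7) and 3.12 ± 0.919 (n = 6), which gave a log2 fold change of 0.60 (SE 0.39, 95% interval -0.24 to 1.45, P-adj = 0.437). Without that mouse the log2 fold change was 0.165. With 51 to 232 counts per library, *Arntl* was also the member with the least depth. *Clock* (ENSMUSG00000029238.12), the partner of BMAL1, was between 52.4 and 78.9 CPM at 22°C (median 65.1) and between 49.9 and 78.1 at 29°C (median 61.3), and the groups covered nearly the same range. Its log2 fold change was 0.07 (SE 0.11, interval -0.16 to 0.31, P-adj = 0.765).

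Among the period genes, *Per2* (ENSMUSG00000055866.10) had the smallest p. It was lower on average at 22°C, where it spanned 29.99 to 50.9 CPM (median 42.5), than at 29°C, where it spanned 47.9 to 54.5 (median 50.6). Of 7 mice at 22°C, 5 were below every mouse at 29°C, and replicates 4 and 5 were within the 29°C range. The means were 41.2 ± 8.06 CPM (SD, n = 7) and 51.2 ± 2.81 (n = 6), a log2 fold change of -0.31 (SE 0.12, interval -0.56 to -0.06), with an unadjusted p of 0.0175 and P-adj = 0.191 by edgeR. By DESeq2 P-adj was 0.105, also above the threshold. With each mouse left out the log2 fold change ran from -0.372 to -0.25, with P-adj between 0.151 and 0.327 by edgeR. *Per3* (ENSMUSG00000028957.13) was between 105 and 154 CPM at 22°C (median 121) and between 97.5 and 208 at 29°C (median 152), with a log2 fold change of -0.27 (SE 0.15, interval -0.59 to 0.05, P-adj = 0.361). The lowest and the highest *Per3* values of all mice were both at 29°C, and leaving out the mouse with the highest gave -0.164. *Per1* (ENSMUSG00000020893.18) leaned the other way, between 79.3 and 176 CPM at 22°C (median 128) and between 65.9 and 140 at 29°C (median 108). Its log2 fold change was 0.27 (SE 0.20, interval -0.17 to 0.70, P-adj = 0.516), and each group's range held most of the other's values. Leaving out 29°C replicate 1 gave 0.158, and leaving out 22°C replicate 4 gave 0.176.

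The cryptochromes, the partners of the PER proteins in repression, differed little. *Cry1* (ENSMUSG00000020038.11) was between 5.96 and 12.4 CPM at 22°C (median 8.21) and between 7.41 and 9.90 at 29°C (median 8.88), so that the 22°C range held the whole 29°C range. Its log2 fold change was -0.05 (SE 0.15, interval -0.38 to 0.28, P-adj = 0.904). *Cry2* (ENSMUSG00000068742.12) was between 58.9 and 96.5 CPM at 22°C (median 74.6) and between 65.0 and 95.9 at 29°C (median 76.4), and again 29°C lay within 22°C. Its log2 fold change was -0.10 (SE 0.12, interval -0.37 to 0.17, P-adj = 0.719).

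Of the genes for the REV-ERB repressors, *Nr1d1* (ENSMUSG00000020889.12) was between 326 and 634 CPM at 22°C (median 383) and between 177 and 496 at 29°C (median 379.5). Replicate 1 at 29°C was the lowest of all mice and replicate 3 at 22°C the highest, while the medians were nearly equal. The log2 fold change was 0.24 (SE 0.22, interval -0.23 to 0.71, P-adj = 0.593), and leaving out 29°C replicate 1 gave 0.103 and leaving out 22°C replicate 3 gave 0.118. *Nr1d2* (ENSMUSG00000021775.12) was between 94.7 and 129.9 CPM at 22°C (median 120.2) and between 84.4 and 119 at 29°C (median 108), a log2 fold change of 0.10 (SE 0.10, interval -0.12 to 0.32, P-adj = 0.645). *Dbp* (ENSMUSG00000059824.13) was between 163 and 274 CPM at 22°C (median 208) and between 125 and 236 at 29°C (median 218), a log2 fold change of 0.08 (SE 0.16, interval -0.26 to 0.41, P-adj = 0.833). For *Dbp* the group with the higher mean had the lower median.

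**Figure D2:**
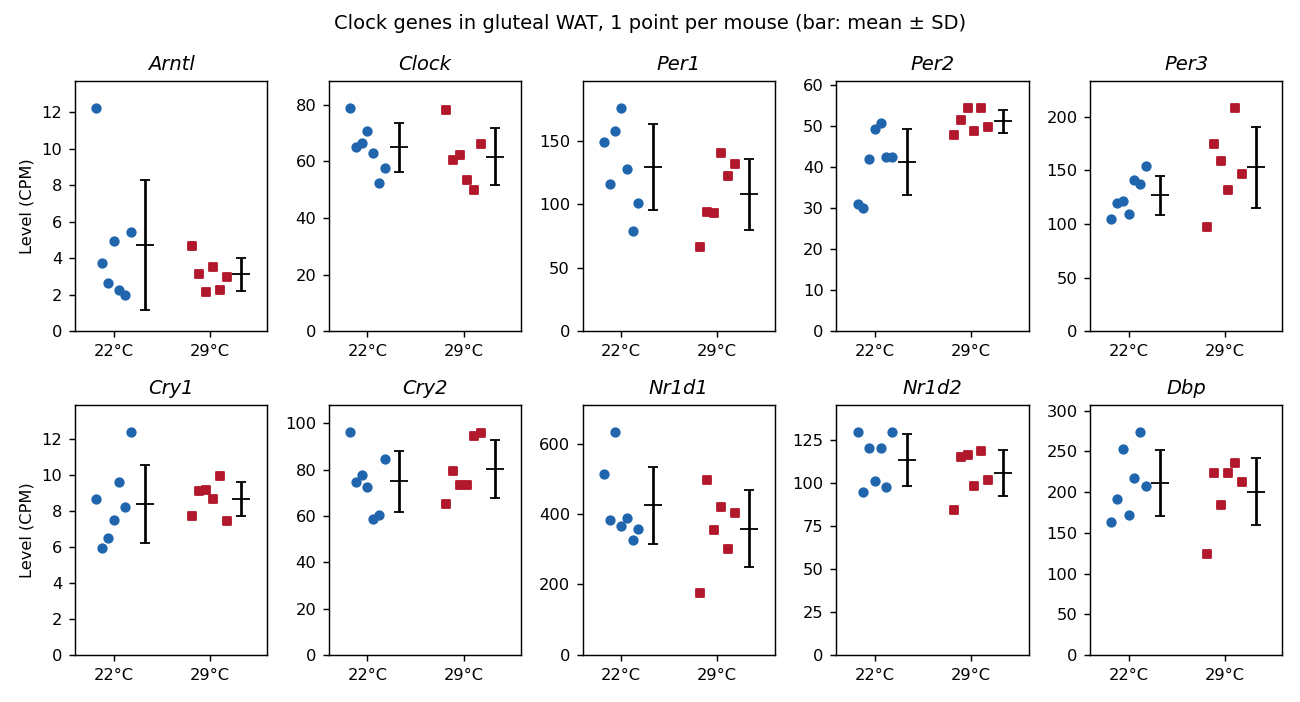
Level (CPM, linear axes from 0) of each clock gene, with 1 point per mouse, 7 at 22°C in blue and 6 at 29°C in red, and the mean ± SD beside each group. The groups overlap for all 10 genes, *Arntl* has a single high mouse at 22°C (12.2 CPM), and *Per2* is lower on average at 22°C (41.2 against 51.2 CPM).

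Some of these genes share exon sequence with a gene on the opposite strand, and the strand setting of the counting is not given in the sources used here. In the GENCODE M21 annotation *Dbp* shares 539 bases of exon (18% of its own) with *Sphk2*, which was between 79.3 and 129 CPM, and *Nr1d1* shares 263 bases (8.55%) with *Thra*, between 193 and 337 CPM. Neither partner was called, with P-adj of 0.400 for *Sphk2* and 0.676 for *Thra*. *Cry2* shares 295 bases and *Arntl* 33 with noncoding genes.

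Over 24 further clock pathway genes, all tested, 1 was called, higher at 22°C (background 0.731% in that direction). An unadjusted p below 0.05 was found for 5, against 18.5% of all genes tested. Log2 fold changes were above 0 for 17 (against 51.6% of all genes tested) and below 0 for 7, with a median of 0.08. The called gene was *Ciart* (ENSMUSG00000038550.11), whose upstream E-boxes are shown above. It was between 7.31 and 14.8 CPM at 22°C (median 12.4) and between 3.94 and 8.46 at 29°C (median 6.82). Replicates 2 and 7 at 22°C were within the 29°C range and the other 5 were above it. *Ciart* was 11.4 ± 2.76 CPM (SD, n = 7) against 6.55 ± 1.64 (n = 6), a log2 fold change of 0.80 (SE 0.20, interval 0.37 to 1.23, P-adj = 0.0896 by edgeR). The direction was the same whichever library was left out (0.686 to 0.883), but P-adj then ran from 0.0803 to 0.185, and it stayed below 0.1 only without 22°C replicate 2, 6 or 7. Over 11 other settings, 6 of which called *Ciart*, P-adj ran from 0.00688 with DESeq2 to 0.384 among the libraries of higher total.

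The nearest to a call after *Ciart* was *Cipc*, which was between 30.8 and 44.6 CPM at 22°C and between 24.8 and 32.5 at 29°C. Only 22°C replicate 2 lay within the 29°C range. Its log2 fold change was 0.32 (SE 0.09), with P-adj = 0.102 by edgeR and 0.0223 by DESeq2. *Usp2*, a deubiquitinase that acts on clock proteins, had the largest log2 fold change of the list at 1.10 (SE 0.42, P-adj = 0.196). Its levels spanned 25.7 to 109 CPM at 22°C against 13.3 to 37.1 at 29°C, and its 2 highest mice were 22°C replicates 7 and 1. Those were also the 2 libraries with the most muscle RNA, and without them its log2 fold change was 0.461. For *Npas2*, a relative of *Clock* that can pair with BMAL1, the change was 0.71 on the log2 scale (SE 0.31, P-adj = 0.252). The 3 genes of the list with the highest CPM were *Tef*, a D-box factor like DBP (log2 fold change -0.17, P-adj = 0.391), *Nampt*, a clock output that makes an NAD precursor (-0.23, P-adj = 0.305), and *Bhlhe40*, a repressor at E-boxes (0.50, P-adj = 0.369).

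*Per1* and a few other clock genes answer to glucocorticoids and feeding, so 12 genes known for those responses were read from the same fit. All 12 were tested and none was called by edgeR, against 1.94% of all genes tested. DESeq2, which called 1676 genes in all, also called none of them. Log2 fold changes were above 0 for 8 (against 51.6% of all genes tested) and below 0 for 4, with a median of 0.09. An unadjusted p below 0.05 was found for 2, against 18.5% of all genes tested. The 2 were *Sgk1*, a kinase induced by glucocorticoids, at 0.63 (SE 0.28, P-adj = 0.245), and *Pdk4*, which restrains glucose oxidation in fasting, at 0.78 (SE 0.34, P-adj = 0.239). *Sgk1* was between 33.8 and 108 CPM at 22°C and between 30.4 and 59.6 at 29°C, and *Pdk4* between 14.5 and 85.3 and between 20.6 and 32.6, each with its 3 highest mice at 22°C in replicates 1, 4 and 7. Those are also the 3 libraries with the highest muscle scores (11.6, 9.33 and 11.7), and with the muscle score as a covariate the log2 fold changes were 0.159 for *Sgk1* and 0.274 for *Pdk4*. The 3 of the 12 with the highest CPM, not scaled by length, were *Angptl4*, *Klf9* and *Tsc22d3*, which had log2 fold changes of -0.10, 0.09 and -0.01.

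For 9 of the 10 clock genes the log2 fold change was smaller than the SD of log2 CPM among mice of the same temperature, and *Per2* was the exception (-0.31 against 0.226). That SD was 0.716 for *Arntl*, and 92.4% of the genes tested had the same or a lower SD. It was 0.433 for *Nr1d1* and 0.403 for *Per1*, against a median of 0.241 over all genes tested, while *Nr1d2* at 0.193 and *Clock* at 0.209 were below that median. In some single mice *Arntl* and *Clock* lay opposite to some, but not all, of the other clock genes. At 29°C, replicate 1 had the highest *Arntl* (4.64 CPM) and *Clock* (78.1) of its group together with the lowest *Per1* (65.9), *Per2* (47.9), *Per3* (97.5), *Cry2* (65.0), *Nr1d1* (177), *Nr1d2* (84.4) and *Dbp* (125), while its *Cry1* (7.72) was the second lowest. At 22°C, replicate 1 had the highest *Arntl* (12.2 CPM) and *Clock* (78.9) with the lowest *Per3* (105) and *Dbp* (163), but it also had the highest *Cry2* (96.5) and *Nr1d2* (129.9), the second highest *Nr1d1* (514) and the third highest *Per1* (149) of its group, so that these 4 did not lie opposite to *Arntl*. Replicate 6 at 22°C was the reverse for *Arntl*, *Clock* and *Dbp*, with the lowest *Arntl* (1.97 CPM) and *Clock* (52.4) and the highest *Dbp* (274), yet it also had the lowest *Per1* (79.3) and *Nr1d1* (326) of its group. The mean log2 CPM of *Arntl* and *Clock* minus that of the *Per*, *Nr1d* and *Dbp* genes was -3.07 ± 0.556 (SD, range -3.61 to -2.08) at 22°C and -3.28 ± 0.534 (range -3.80 to -2.25) at 29°C, and the groups overlapped over most of their ranges.

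**Figure D3:**
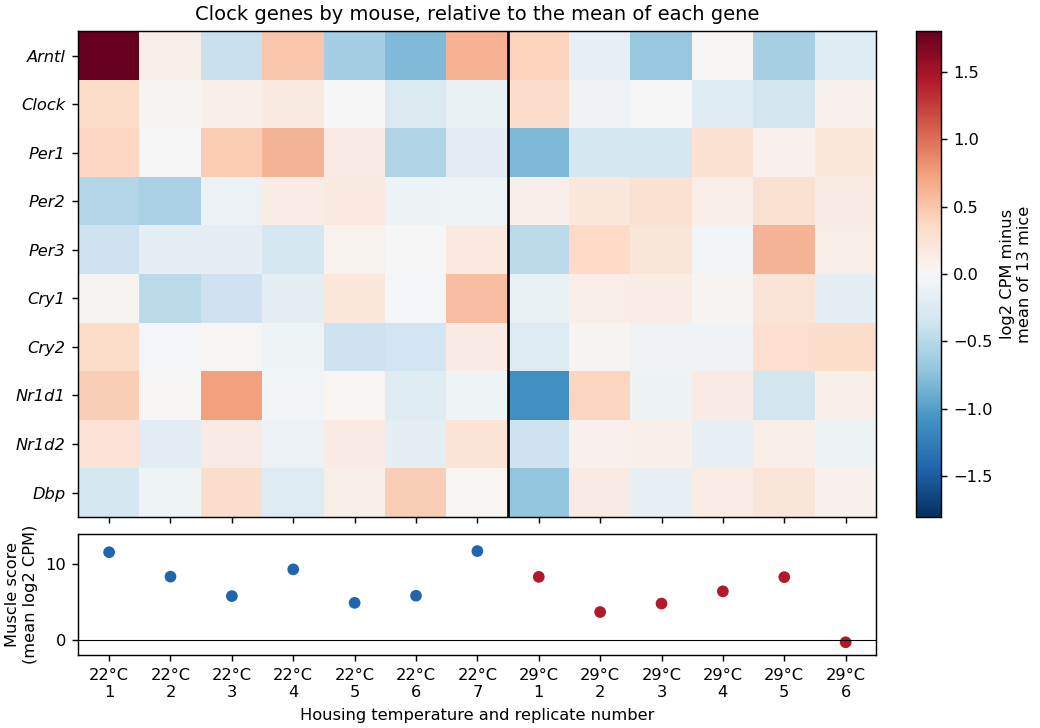
Upper panel: log2 CPM of each clock gene in each mouse minus that gene's mean over 13 mice, red above and blue below, with a line between temperatures. Lower panel: muscle score (mean log2 CPM of 12 muscle genes) of the same libraries. Replicate 1 at 29°C is red for *Arntl* and *Clock* and blue for *Per1*, *Per3*, *Nr1d1* and *Dbp*, and the muscle score is highest in 22°C replicates 7 (11.7) and 1 (11.6).

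Over all 45 pairs of clock genes, Pearson's r of log2 CPM over the 13 mice was above 0 for 29 and below 0 for 16. By permutation tests with 100000 resamples, two-sided and adjusted over 45 pairs, 2 pairs had P-adj below 0.05 and 10 had an unadjusted p below 0.05. Both involved *Clock*. *Clock* and *Dbp* had r = -0.771 (permutation p = 0.0016, P-adj = 0.0459) and Spearman's rho = -0.687 (permutation p = 0.0118, P-adj = 0.159). Within temperatures r was -0.781 at 22°C (n = 7, exact permutation p = 0.0371) and -0.859 at 29°C (n = 6, exact permutation p = 0.0167). With the 2 mice farthest from the median of *Clock* left out it was -0.759, and among the 8 libraries of higher total it was -0.873. *Clock* and *Per3* had r = -0.771 (permutation p = 0.00204, P-adj = 0.0459) and rho = -0.747 (permutation p = 0.00453, P-adj = 0.159), with -0.842 at 22°C (n = 7, exact permutation p = 0.0171) and -0.759 at 29°C (n = 6, exact permutation p = 0.075), -0.611 without the 2 farthest mice and -0.655 among the libraries of higher total. Centred within temperature, the P-adj by permutation was 0.0477 for *Clock* and *Dbp* and 0.0745 for *Clock* and *Per3*, so that the latter no longer passed. The cluster of lower totals holds 5 mice, all at 22°C, too few for a value. Leaving out a single mouse kept r between -0.863 and -0.708 for *Clock* and *Dbp* and between -0.841 and -0.686 for *Clock* and *Per3*, but the largest P-adj was 0.161 for each, and no pair passed without any 1 of 22°C replicates 1, 2, 4, 5 and 7 or 29°C replicates 1, 3 and 5. Over all mice no pair passed by Spearman's rho.

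The remaining pairs did not pass the adjustment. *Arntl* and *Clock*, the 2 activators, had r = 0.624 (permutation p = 0.0206, P-adj = 0.202, rho = 0.522 with permutation p = 0.0704, and r = 0.625 without the 2 mice farthest from the median of *Arntl*). *Arntl* and *Dbp* had r = -0.610 (permutation p = 0.0315, P-adj = 0.202, rho = -0.648 with permutation p = 0.0194, and r = -0.696 without those 2 mice). Between the activators and the *Nr1d* genes, r lay between -0.12 and 0.142 over all mice, but its sign differed between 22°C and 29°C. *Arntl* and *Nr1d1* had r = 0.0815 (permutation p = 0.774), with 0.226 at 22°C, -0.419 at 29°C and -0.251 without those 2 mice. For *Arntl* and *Nr1d2* r was 0.142 over all mice, 0.439 at 22°C, -0.905 at 29°C and -0.645 without those 2 mice. For *Clock* and *Nr1d1* it was -0.0175 over all mice, 0.602 at 22°C and -0.538 at 29°C. For *Clock* and *Nr1d2* it was -0.12 over all mice, 0.292 at 22°C and -0.675 at 29°C. Each of these pairs was thus above 0 at 22°C and below 0 at 29°C, and that difference was not tested. *Per1* and *Nr1d1* had the highest r of all pairs, 0.665 (permutation p = 0.0127, P-adj = 0.190, rho = 0.648 with permutation p = 0.0201). Their r was 0.61 at 22°C and 0.658 at 29°C, and at least 0.416 with any single mouse left out. Without 22°C replicate 6 and 29°C replicate 1, the 2 mice farthest from the median of *Per1*, it was 0.302. Between *Arntl* or *Clock* and the *Per*, *Nr1d* and *Dbp* genes, 8 of 12 pairs were below 0 (median r -0.247). Among the *Per*, *Nr1d* and *Dbp* genes themselves, 11 of 15 were above 0 (median r 0.317). Some changed sign without the 2 mice farthest from the median of the first-named gene. With 29°C replicate 1 among the 2 left out, r was -0.421 for *Nr1d1* and *Dbp* (0.515 over all mice). Likewise it was -0.275 for *Nr1d2* and *Dbp* (0.317) and -0.214 for *Per1* and *Nr1d2* (0.361). It stayed above 0 for *Nr1d1* and *Nr1d2* (0.193 against 0.586) and for *Per3* and *Dbp* (0.384 against 0.601). These pairs share genes and libraries, so the counts are a description.

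**Figure D4:**
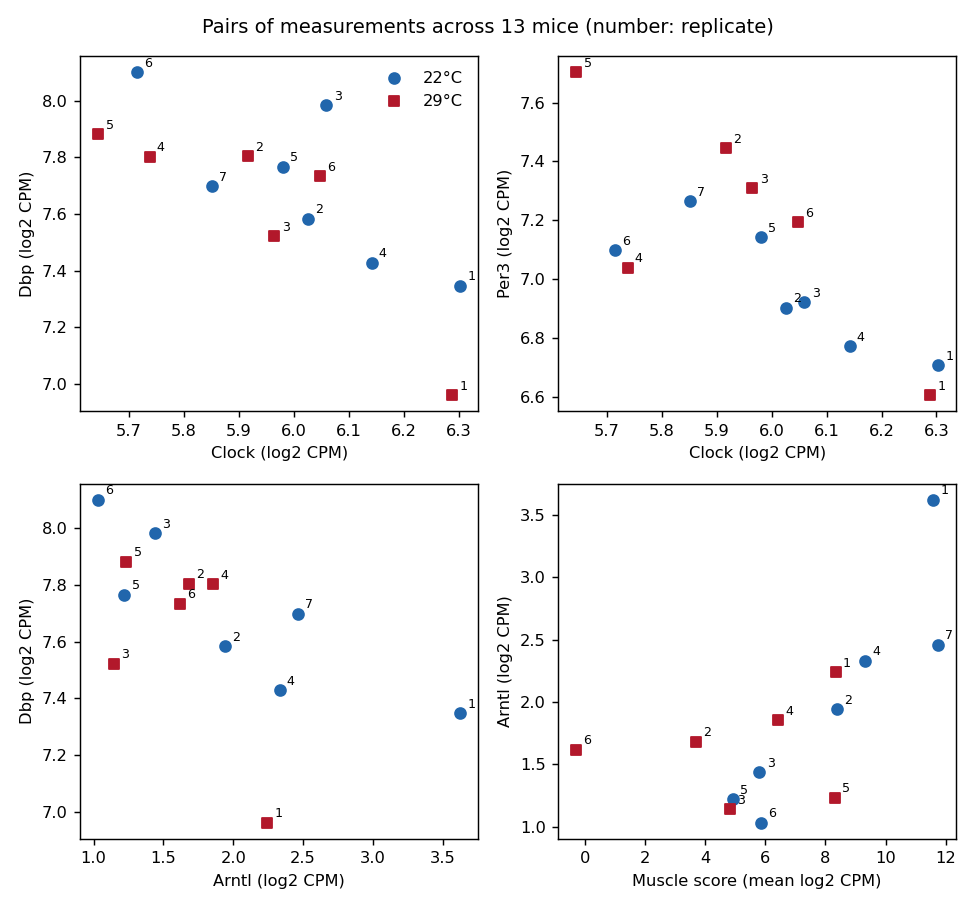
Log2 CPM of *Dbp* and of *Per3* against *Clock*, of *Dbp* against *Arntl*, and of *Arntl* against the muscle score (mean log2 CPM of 12 muscle genes), with 1 point per mouse, its replicate number, 22°C in blue circles and 29°C in red squares. *Dbp* and *Per3* fall as *Clock* rises (r = -0.771 in both panels), and the highest *Arntl* value, in 22°C replicate 1, has a muscle score of 11.6.

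Muscle RNA and library totals moved with several of these values. The 4 mice with the highest muscle scores at 22°C, replicates 7, 1, 4 and 2 (11.7, 11.6, 9.33 and 8.37), were also its 4 with the highest *Arntl* (5.43, 12.2, 4.95 and 3.76 CPM). At 29°C this was not so throughout: replicate 1, with the highest score (8.34), had the highest *Arntl* (4.64 CPM), but replicate 5, with nearly the same score (8.31), was at 2.27 CPM. Over the mice at 22°C, Pearson's r with the muscle score was 0.905 for *Arntl*, 0.829 for *Cry2* and -0.723 for *Dbp*. The other clock genes lay between -0.427 (*Per2*) and 0.39 (*Clock*) there. At 29°C r was 0.171 for *Arntl*, -0.473 for *Cry2* and -0.336 for *Dbp*. With the muscle score as a covariate the log2 fold change of *Arntl* was -0.0716, and without 22°C replicates 1 and 7 it was -0.00586, against 0.60. For *Ciart* the same changes gave 0.948 (P-adj = 0.140) and 0.877 (P-adj = 0.0988). Among the 8 libraries of higher total, where 22°C has only replicates 6 and 7, log2 fold changes were -0.17 for *Clock*, -0.27 for *Per1*, -0.08 for *Nr1d1* and 0.24 for *Cry1*, each opposite in sign to the value over all mice, and 0.652 (P-adj = 0.384) for *Ciart*. The part of muscle RNA and of library totals in the results was not tested.

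Outside the clock, the genes whose log2 CPM over the 13 mice was most like that of *Arntl* were *n-R5s185*, a 5S ribosomal RNA gene of many near-identical copies whose count is uncertain (r = 0.929), *Nexn*, an actin-binding protein of striated muscle (0.925), *Cryab*, a small heat shock protein abundant in muscle (0.920), and *Galnt17* (0.918). Those least like it were *Arl16* (-0.918), *Aldh9a1* (-0.903), *Kdelr1* (-0.902) and 2 predicted genes. The genes most like *Dbp* were *Olfm2* (0.896), *Kmt5c* (0.871), *Ddb2* (0.845), *Rogdi* (0.838) and 1 predicted gene. Those least like *Dbp* were *Slc25a32*, a mitochondrial folate transporter (-0.819), *Tsc22d3*, the glucocorticoid-induced gene named above (-0.812), *Ube2g2* (-0.807), *Galnt7* (-0.792) and 1 predicted gene. Of 17779 genes tested, 11 had a lower r with *Dbp* than *Clock* had, and 311, with *Dbp* itself among them, had a higher r with it than *Per3* (0.601). These are the extremes of 17779 values and carry no test.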

How the data were processed

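Reads from gluteal WAT of 13 mice were aligned by the authors with STAR 2.7.5a, counted per gene with featureCounts, and deposited as raw counts of 34419 genes. A further table deposited by the authors holds regularized log2 values from DESeq2. The submitters' notes name the GRCm39 build, the paper mm10 for cultured cells. The strand setting and the annotation are not given in the sources used here. Samples were grouped by the labelled housing temperature, and table columns were matched to samples by the number in their description. Whether mice shared a litter or thermal chamber is not stated.

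Counts were fitted with edgeR 4.0.16 (TMM, filterByExpr, quasi-likelihood F test, no covariate), adjusted by Benjamini-Hochberg over 17779 genes and called at P-adj below 0.1. CPM use TMM-scaled totals, and log2 CPM a prior count of 2. The SE was derived from the fitted log2 fold change and its F value, and 95% intervals from the fit's degrees of freedom. A count of 0 would allow up to 3 counts, 0.113 to 0.158 CPM by library, for counting error only. The closest of 78 library pairs still differed by a chi-square of 15.5 per gene, far above sampling noise, and no library was merged with another. Correlations used permutation tests, exact with 8 mice or fewer. Methods were tested on simulated data.

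Members and gene lists were chosen with earlier results of these data known. Genes named are the 10 members, genes of the other lists that were called, had an unadjusted p below 0.05 or were among the 3 with the highest CPM, and the 5 highest and 5 lowest by r with *Arntl* or *Dbp*. Some results for genes that this rule names are not reported here. *Sphk2* and *Thra* were added for their overlap, and *Bhlhe41*, *Timeless*, *Nfil3* and *Hlf* for their motif matches. Exon lengths and overlaps came from GENCODE M21 (GRCm38). Alternatives were DESeq2 1.42.0, its size factors, no filter, robust quasi-likelihood, a minimum mean count of 10, a replicate block, the muscle score or the cluster of totals as a covariate, only libraries of higher total, P-adj below 0.05, limma 3.58.1 on the deposited log2 values, a prior count of 0.5, and leaving out each mouse. Leaving out the 2 libraries with the most muscle RNA was chosen after seeing the data.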

Additional observations from a re-analysis of the deposited data

Results flagged for a closer look

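Of the 46 groups of values examined for a mouse far from the rest of its group, 2 had one, and chance alone gives about 1 in 20. *Arntl* in 22°C replicate 1 was the highest of its group at 12.2 CPM, with the next at 5.43 CPM, a gap of 0.663 of the group's whole range against a critical value of 0.568 for 7 mice. *Tef*, a D-box transcription factor, was the highest of its group in 29°C replicate 5 at 414 CPM, with the next at 334 CPM, a gap of 0.668 of the range against a critical value of 0.625 for 6 mice. That mouse also had the highest *Per3* of all mice (208 CPM).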

How the results depend on the processing

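The count of genes called over all genes (345) was 1676 with DESeq2 (914 higher, 762 lower), 42 with no filter on low counts, 214 with a replicate block, 48 with the muscle score as a covariate, 4 with library-total cluster as covariate, 8 among libraries of higher total only, 40 at P-adj below 0.05, and 32 to 652 with each mouse left out. None of the 10 clock genes was called under any of these settings. Of the 24 further clock pathway genes (1 called), 2 were called with DESeq2, 0 with no filter, a replicate block, either covariate, higher totals only or P-adj below 0.05, and 0 to 2 with each mouse left out. Pairs of clock genes past the threshold (2) numbered 0 with the authors' regularized log2 values, Spearman's rho, 22°C only, 29°C only, higher totals only or DESeq2 size factors, 1 when centred within temperature or without the 2 libraries with the most muscle RNA, and 0 to 3 with each mouse left out.

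Of the alternative fold changes of clock genes, 227 kept their direction and 13 reversed. With the muscle score as a covariate, log2 fold changes were -0.0716 for *Arntl*, 0.0456 for *Angptl4* and -0.0547 for *Klf9*. Without the 2 libraries with the most muscle RNA, *Arntl* was at -0.00586. With the cluster of totals as a covariate they were -0.164 for *Clock*, -0.26 for *Per1*, 0.249 for *Cry1*, -0.0701 for *Nr1d1*, -0.133 for *Npas2*, 0.000997 for *Tef* and -0.0287 for *Klf9*. Among libraries of higher total they were -0.172 for *Clock*, -0.267 for *Per1*, 0.244 for *Cry1*, -0.0785 for *Nr1d1*, -0.144 for *Npas2* and -0.0353 for *Klf9*. With limma on the authors' log2 values *Angptl4* was at 0.000832. With each mouse left out, the ranges were -0.165 to 0.0225 for *Cry1*, -0.0292 to 0.13 for *Dbp* (below 0 without 29°C replicate 1), -0.27 to 0.0592 for *Angptl4* and -0.078 to 0.0714 for *Tsc22d3*. The cause was not tested.

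The replicate numbers pair the samples only by number. Same-numbered deviations correlated at 0.0508 to 0.513 over 6 pairs, 5 of them over 0.1, and 4 of 6 mice at 22°C correlated best with their own number at 29°C. Only 2 mice at 22°C are among the higher totals, and *Arntl* rests on 51 to 232 counts per library.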
